A study of Mus musculus with 12 samples.

Results

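The subject is 10 integrin chains, the 5 α chains Itgae, Itga4, Itgal, Itgav and Itga6 and the 5 β chains Itgb1, Itgb2, Itgb3, Itgb7 and Itgb8, among the 13207 genes of the deposited expression table. They were chosen by name with their levels in the 4 sorted groups already known from earlier work on these files. Their levels and differences are therefore given as a description with no p-value. The 95% intervals are for each chain alone, without adjustment for the number of genes tested or for that choice. An interval that leaves out 0 is therefore not a call. How many of them the fit across all genes called is counted once per comparison beside the share of all genes, and p-values are printed only for genes outside the list. The material was bulk RNA-seq of sorted thymic CD4+ cells, 12 libraries in 4 groups of 3.

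Every group came from C57BL/6 mice given tamoxifen in olive oil into the peritoneum, at 10 μg per g of body weight, and killed at day 7. The alleles behind the tdTomato and GFP signals, the age of the mice and any pooling of animals are not given in the sources used here. Newly generated conventional T cells (Tconv) were tdTomato+, GFP- and CD73-. CD73- newly generated regulatory T cells (Treg) were tdTomato+, GFP+ and CD73-, and CD73+ newly generated Treg were tdTomato+, GFP+ and CD73+. The tdTomato- Treg were GFP+ cells without the label, not divided by CD73. Libraries are named here by the letter in their titles, A, B or D. The labels do not say that the 3 libraries of a group came from separate mice, and a p-value here speaks only of the spread among the libraries sequenced, part of which may be technical.

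Integrins are cell surface receptors made of 1 α and 1 β chain, and a chain reaches the surface only with a partner. αEβ7 (CD103 with β7) binds E-cadherin on epithelium. αvβ8 frees active TGF-β from its latent complex, which Treg hold on their surface with GARP, and αvβ3 binds vitronectin and other ligands with an RGD sequence. α4β1 binds VCAM-1 and fibronectin, α4β7 binds the gut addressin MAdCAM-1, α6β1 binds laminin, and αLβ2 (LFA-1) binds ICAM-1 in the contact of a T cell with another cell. Chains with several possible partners, such as α4, αv, β1 and β7, can change their pairing when a partner changes.

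The chains lie on 7 mouse chromosomes in the mm10 build, with coordinates from GENCODE M21 (GRCm38). Itgae is at chromosome 11, 73090583 to 73147446, and Itgb3 at chromosome 11, 104608000 to 104670476, both on the plus strand. Itga6 (71745616 to 71858416), Itga4 (79255426 to 79333123) and Itgav (83724397 to 83806916) follow each other on chromosome 2, all on the plus strand. Itgb1 is at chromosome 8, 128685654 to 128733200, Itgal at chromosome 7, 127296260 to 127335138, and Itgb2 at chromosome 10, 77530252 to 77565708, all on the plus strand. Itgb7 is at chromosome 15, 102215995 to 102231944, and Itgb8 at chromosome 12, 119158022 to 119238802, both on the minus strand. The strand setting of the counting is not given in the sources used here, so reads of a gene on the opposite strand cannot be told apart where exons meet. Cerkl shares 1124 exon bases with Itga4, at a log2 CPM of 1.72 to 2.34 by group mean, far below Itga4. Gm13684, on the strand opposite to Itgav, shares 634 exon bases with it. Gm13684 is not among the genes analysed here, so its level could not be read. Haspin lies inside Itgae on the other strand with 0 shared exon bases.

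RefSeq promoter entries (GRCm38.p6) were found for 5 of the 10 chains, and those of Itga4, Itgb1 and Itgb7 are printed because α4 with its alternative partners β1 and β7 changes balance between the groups in the results that follow. Each stretch runs 5′ to 3′ and ends at the annotated start of the gene, and capitals mark each CG dinucleotide.
Itga4 (chr2:79255176-79255425, plus strand): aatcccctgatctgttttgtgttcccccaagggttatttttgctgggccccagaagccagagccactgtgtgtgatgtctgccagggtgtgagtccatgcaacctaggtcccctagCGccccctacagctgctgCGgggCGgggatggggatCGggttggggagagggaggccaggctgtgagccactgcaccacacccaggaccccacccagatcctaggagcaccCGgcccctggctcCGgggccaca
Itgb1 (chr8:128685404-128685653, plus strand): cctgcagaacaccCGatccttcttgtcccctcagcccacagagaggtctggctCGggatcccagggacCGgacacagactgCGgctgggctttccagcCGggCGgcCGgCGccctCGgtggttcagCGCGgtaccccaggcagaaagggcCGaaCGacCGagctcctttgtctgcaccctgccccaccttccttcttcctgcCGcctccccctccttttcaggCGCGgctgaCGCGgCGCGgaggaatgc
Itgb7 (chr15:102231945-102232185, minus strand): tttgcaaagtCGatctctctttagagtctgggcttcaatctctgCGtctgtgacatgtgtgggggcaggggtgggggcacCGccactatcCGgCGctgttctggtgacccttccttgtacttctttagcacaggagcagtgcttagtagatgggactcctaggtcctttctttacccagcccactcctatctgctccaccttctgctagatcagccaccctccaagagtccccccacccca
The stretches are 250, 250 and 241 bases long, cut to lie outside annotated exons. Itgb1 had 21 CG dinucleotides, more than 83.7% of all promoters in the table over the same length, whereas Itga4 had 6 and Itgb7 had 5, near the medians of 6 and 5. The GC box letters GGGCGG, searched on both strands, were found once in Itgb1 and once in Itga4 and not in Itgb7, and 32.7% of all 250-base and 32.4% of all 241-base promoter stretches hold them. The letters TGTGGT (RUNX) were found once in Itga4, as in 14% of all promoters, and the letters CCAAT and TATAAA in none of the 3 stretches. These are descriptions of the letters only.

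Depth, read from the lowest values of each library, was 11000000 to 21400000 counts, and the level of 3 counts lay between −2.61 and −1.65 log2 CPM, which covers counting error only. Foxp3 was higher in the GFP+ groups than in Tconv, and Nt5e in the CD73+ than in the CD73- newly generated Treg. The cells had been sorted on GFP and CD73. Foxp3, the master regulator of Treg, had a mean log2 CPM of 9.16, 9.19 and 9.11 in the CD73-, CD73+ and tdTomato- Treg against 0.18 in Tconv. Nt5e, which encodes CD73, stood at 3.88 in Tconv, 5.54 in CD73- Treg, 7.29 in CD73+ Treg and 8.21 in tdTomato- Treg. Its mean thus differed between the groups sorted as CD73- and was highest in the Treg not divided by CD73. The 9 measured defining genes of CD4 T cells, which include Foxp3, Nt5e and the IL-2 receptor chain Il2ra, summed to 2480 to 3640 CPM in the 12 libraries. Cd4 itself fell in tdTomato- Treg against Tconv by 0.84, Cd3g by 0.90, Cd3d by 0.50, Cd3e by 0.37 and Lck by 0.35, and none of these 5 passed between CD73+ and CD73- Treg. The authors scaled the CD73+ and CD73- newly generated Treg in a table of their own and the tdTomato- Treg and Tconv in another, so differences were fitted only within a table. A level set across the tables is a description. In bulk RNA a lower share of cells that express a gene and less RNA per cell cannot be told apart.

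The αE chain spanned the widest range of the 10. Itgae had a log2 CPM of 0.80, 0.77 and 0.76 in Tconv libraries A, B and D, at 30 to 36 reads per library. It stood at 2.76, 2.58 and 2.53 in CD73- newly generated Treg and at 4.64, 4.48 and 4.39 in CD73+ newly generated Treg. In tdTomato- Treg it reached 7.72, 7.81 and 7.85, and no library of any group overlapped another group. The CD73+ newly generated Treg were above the CD73- by 1.88 on the log2 scale (SE 0.11), a 3.68-fold difference, with a gap of 1.63 between the nearest libraries. The tdTomato- Treg were above Tconv by 7.02 (SE 0.11), or 129-fold. The pooled SD of Itgae within groups was 0.09, and only 6% of the 1000 genes nearest to it in level had a smaller one. Those genes were matched on its mean over all libraries, 3.92, well above its level in Tconv and below that in tdTomato- Treg.

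Its partner β7 moved far less. Itgb7 had a log2 CPM of 7.57, 7.29 and 7.53 in Tconv (7.46 ± 0.15, SD, n = 3) and of 7.74, 7.57 and 7.76 in CD73- Treg. The CD73+ Treg had 7.89, 7.76 and 7.75 and the tdTomato- Treg 8.21, 8.29 and 8.23. Only the tdTomato- Treg stood clear of the other groups. The difference of CD73+ from CD73- Treg was 0.11 (95% interval −0.04 to 0.26) and that of tdTomato- Treg from Tconv 0.78 (0.63 to 0.93). Per kilobase of transcript, Itgae was at 0.439 CPM in Tconv beside 66 CPM for Itgb7, and at 57.7 beside 113 in tdTomato- Treg.

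**Figure D1:**
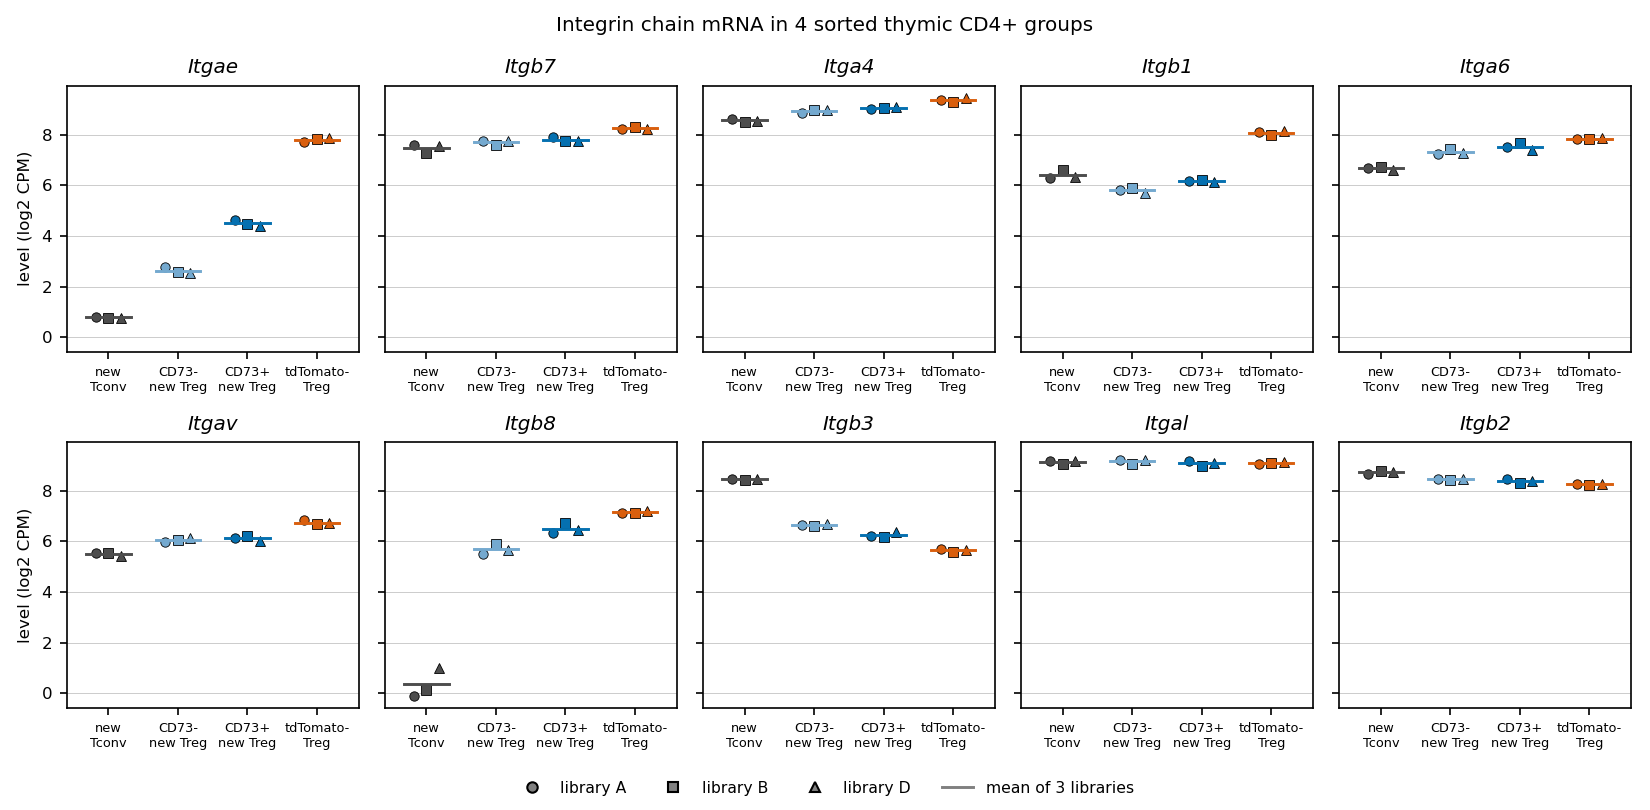
Level (log2 CPM, vertical axis) of the 10 integrin chains in each of the 12 libraries, by group, with a bar at the mean of 3 libraries. Itgae runs from 0.78 in Tconv to 7.79 in tdTomato- Treg by mean and Itgb8 from 0.36 to 7.15, Itgb3 runs the other way from 8.45 to 5.66, and Itgal stays between 9.08 and 9.16; the groups of the first and second table were scaled separately.

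The αv chain stood in the same order of groups as its partner β8, and its partner β3 in the reverse order. Itgav had a log2 CPM of 5.56, 5.55 and 5.43 in Tconv, 5.97, 6.04 and 6.15 in CD73- Treg, 6.14, 6.22 and 6.0 in CD73+ Treg and 6.83, 6.67 and 6.72 in tdTomato- Treg. The newly generated Treg groups overlapped each other, while Tconv lay below and tdTomato- Treg above them. The difference between CD73+ and CD73- Treg was 0.07 (95% interval −0.09 to 0.22), and that between tdTomato- Treg and Tconv 1.23 (1.07 to 1.38), or 2.34-fold.

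For Itgb8, the β chain of the TGF-β-activating αvβ8, the Tconv libraries had −0.09, 0.14 and 1.02, at 15.9 to 36 reads. Library D was the high value of that group. The CD73- Treg had 5.50, 5.90 and 5.67 and the CD73+ Treg 6.33, 6.72 and 6.44, with a difference of 0.81 (SE 0.20), or 1.75-fold. The tdTomato- Treg had 7.12, 7.11 and 7.21, above Tconv by 6.79 (SE 0.20), or 111-fold. The 4 groups did not overlap. Library B was the highest of both newly generated Treg groups. The pooled SD of Itgb8, 0.33, was larger than in 99.6% of the 1000 genes nearest in level, whose median was 0.11. That SD came mostly from Tconv, at 0.59, against 0.2, 0.2 and 0.06 in CD73-, CD73+ and tdTomato- Treg. Those genes were matched on the mean over all libraries, 4.92, far above the level of Itgb8 in Tconv.

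Itgb3, another β partner of αv, was the chain with the clearest excess in Tconv. Its levels there were 8.47, 8.42 and 8.46, followed by 6.65, 6.63 and 6.70 in CD73- Treg. The CD73+ Treg had 6.21, 6.19 and 6.36 and the tdTomato- Treg 5.72, 5.59 and 5.68. All 4 groups stood apart. The CD73+ Treg were lower than the CD73- by 1.33-fold (log2 difference −0.41, SE 0.06) and the tdTomato- Treg lower than Tconv by 6.9-fold (−2.79, SE 0.06). Platelets also carry β3. Of a list of 10 platelet genes, Itga2b alone was among the genes analysed here, at 0.779 to 3.9 CPM over the 12 libraries, and Itgb3 had a mean of 350 CPM in Tconv. F13a1, a coagulation factor chain not on that list, differed in the direction of Itgb3 in both comparisons. It was at −0.26 in CD73+ against CD73- Treg and −2.55 in tdTomato- Treg against Tconv. A part of platelets in the level of Itgb3 was not tested.

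The α4 chain was abundant in every group. Itga4 had a log2 CPM of 8.63, 8.49 and 8.55 in Tconv, 8.87, 8.97 and 8.98 in CD73- Treg, 9.0, 9.03 and 9.10 in CD73+ Treg and 9.38, 9.27 and 9.44 in tdTomato- Treg. Those values do not overlap between groups, although the nearest libraries of CD73- and CD73+ Treg were only 0.02 apart. Within the newly generated Treg the difference was 0.10 (95% interval −0.01 to 0.22), and the tdTomato- Treg were above Tconv by 0.81 (0.69 to 0.92).

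β1 followed an order of its own. Itgb1 was at 6.28, 6.59 and 6.33 in Tconv, at 5.82, 5.88 and 5.69 in CD73- Treg, at 6.16, 6.2 and 6.13 in CD73+ Treg and at 8.09, 8.0 and 8.13 in tdTomato- Treg. The lowest group was the CD73- newly generated Treg, with Tconv above both newly generated Treg groups, and the tdTomato- Treg stood 1.41 above the nearest Tconv library. CD73+ Treg exceeded CD73- Treg by 0.37 (SE 0.08), or 1.29-fold, and tdTomato- Treg exceeded Tconv by 1.67 (SE 0.08), or 3.19-fold. The other 6 chains that were higher in tdTomato- Treg than in Tconv also had both newly generated Treg groups above Tconv by mean, an order set across the separately scaled tables and not tested.

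The laminin-binding α6 chain was higher group by group in smaller steps. Itga6 had levels of 6.69, 6.71 and 6.62 in Tconv, 7.23, 7.42 and 7.27 in CD73- Treg, 7.5, 7.67 and 7.40 in CD73+ Treg and 7.81, 7.84 and 7.88 in tdTomato- Treg. The newly generated Treg groups overlapped by 0.02, with library B the highest in each. Their difference was 0.22 (95% interval 0.08 to 0.36), and that of tdTomato- Treg from Tconv was 1.17 (1.03 to 1.31), or 2.25-fold.

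Over the 4 groups the chains of LFA-1 had the smallest ranges of group means. Itgal, the α chain, had 9.17, 9.06 and 9.19 in Tconv, 9.20, 9.05 and 9.22 in CD73- Treg, 9.16, 8.96 and 9.11 in CD73+ Treg and 9.07, 9.10 and 9.12 in tdTomato- Treg. Every group overlapped its neighbours in the order of levels. CD73+ Treg differed from CD73- Treg by −0.08 (95% interval −0.20 to 0.04), and the tdTomato- Treg from Tconv by −0.04 (−0.17 to 0.08). Itgb2, the β chain, had 8.68, 8.77 and 8.73 in Tconv, 8.47, 8.44 and 8.47 in CD73- Treg, 8.45, 8.29 and 8.40 in CD73+ Treg and 8.27, 8.22 and 8.26 in tdTomato- Treg. It was highest in Tconv and lowest in tdTomato- Treg, apart by −0.48 (SE 0.05), while the newly generated Treg groups overlapped and differed by −0.08 (−0.18 to 0.02).

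**Figure D2:**
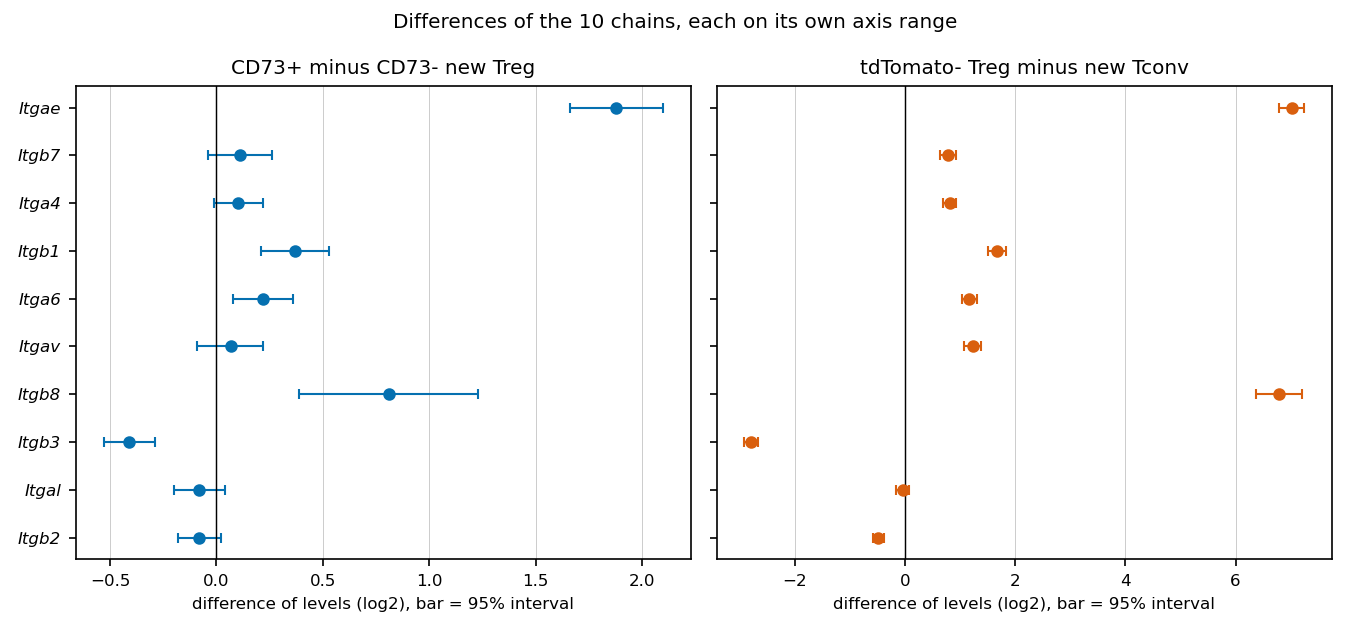
Difference of levels (log2, horizontal axis, bars are 95% intervals) of the 10 chains, for CD73+ minus CD73- newly generated Treg on the left and tdTomato- Treg minus newly generated Tconv on the right, with different axis ranges. Itgae leads on both sides at 1.88 and 7.02, Itgb3 is the lowest at −0.41 and −2.79, and Itgal lies across 0 at −0.08 and −0.04.

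Between CD73+ and CD73- newly generated Treg, the fit across all genes placed 3 chains higher (Itgae, Itgb8 and Itgb1) and 1 lower (Itgb3) at an adjusted p under 0.05, with 6 not past it. Of the 11170 genes tested, 273 or 2.44% were past it, 1.79% higher and 0.654% lower. The groups did not overlap for 5 of the 10 chains, beside 18.2% of all genes. The chains were picked with this contrast in view, so nothing is read from their count. These calls are from the fit without a block. The letters were taken to pair the libraries of this comparison, although that fit does not use the pairing. With the letter as a block 630 genes (5.64%) and 5 chains were past the threshold, Itga6 being the added chain. The block was fitted over all 12 libraries, so its letter effect was shared with tdTomato- Treg and Tconv, for which no pairing was taken. The calls of Itgb1 and Itgb8 were near the threshold. Leaving out CD73+ library A, CD73+ library B or CD73- library D, or fitting with no intensity trend, ended both calls. Leaving out CD73+ library D or CD73- library A ended that of Itgb8, and leaving out all libraries of letter D that of Itgb1. Their differences stayed close to 0.37 and 0.81, at 0.31 to 0.41 for Itgb1 and 0.69 to 0.91 for Itgb8 over the 15 alternatives, beside 1.73 to 1.95 for Itgae and −0.46 to −0.38 for Itgb3.

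Between tdTomato- Treg and Tconv, 7 chains were higher, 2 lower (Itgb3 and Itgb2) and 1, Itgal, not past the threshold. The background is wide here, since 52.1% of 11198 genes were past it, 26.4% higher and 25.7% lower. The groups did not overlap for 9 of the 10 chains, beside 60.9% of all genes. These groups differ in lineage, in labelling and in the CD73 gate, which cannot be told apart. The median difference of the 10 chains was 0.99 beside −0.01 over all genes tested, and in the other comparison 0.11 beside 0.01.

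Across the 3 Treg groups by mean, 7 chains stood in the order CD73- newly generated, CD73+ newly generated, tdTomato-: Itgae, Itgb8, Itgb1, Itga4, Itga6, Itgb7 and Itgav. Itgb3 and Itgb2 stood in the reverse order, and Itgal in neither. Neighbours in that order overlapped for the newly generated groups of Itgav, Itga6, Itgb7 and Itgb2. The last step crosses the separately scaled tables and was not tested. The share of all genes in either order was not counted, and the chains were chosen with their levels known. Nothing is therefore read from how many chains stood in order.

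Per kilobase of the longest coding transcript, the order of the chains within a group changed with the group. Itgb2 led in Tconv at 143 CPM per kb, with Itgal second at 108, and the same pair led in both newly generated Treg groups. In tdTomato- Treg Itgb7 led at 113, with Itgal at 105 and Itgb2 at 103. Itgae was at place 9 of the 10 in Tconv, place 10 in the newly generated Treg groups (1.6 and 5.91 CPM per kb) and place 6 in tdTomato- Treg. Itgb3 was at place 4 in Tconv with 60.5 CPM per kb and place 10 in tdTomato- Treg with 8.76. Itgb8 was at place 10 in Tconv with 0.158 and at place 8 in tdTomato- Treg with 16.9. These levels depend on which transcript is used, and with the union of exons Itgal fell behind Itgb2 in tdTomato- Treg.

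A difference of 2 chains within a library does not depend on how the library was scaled, so it can be set side by side over all 4 groups. Only its change between groups is read here, because its size depends on transcript length. Itgae minus Itgb7 was −6.69 ± 0.14 in Tconv, −5.07 ± 0.14 in CD73- Treg, −3.30 ± 0.06 in CD73+ Treg and −0.45 ± 0.06 in tdTomato- Treg (log2, SD, n = 3). The steps between these groups were 3.07-fold, 3.41-fold and 7.19-fold, and no libraries overlapped. In each step the αE chain came closer to its β partner. Against its competitor for β7, Itgae minus Itga4 ran from −7.78 to −6.32, −4.54 and −1.57, also without overlap.

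Of the β partners of αv, only β8 and β3 were set against each other, and their balance shifted towards β8. Itgb8 minus Itgb3 was −8.56, −8.28 and −7.44 in Tconv libraries A, B and D and −1.15, −0.73 and −1.03 in CD73- Treg. It was 0.12, 0.53 and 0.08 in CD73+ Treg and 1.4, 1.52 and 1.53 in tdTomato- Treg. The groups stood apart, with steps of 139-fold, 2.32-fold and 2.36-fold towards Itgb8. Per kilobase of transcript Itgb3 was still above Itgb8 in CD73+ Treg, at 13.2 against 10.8 CPM per kb, and below it in tdTomato- Treg, at 8.76 against 16.9. Itgav minus Itgb8 went from 5.16 in Tconv to 0.36 in CD73- Treg and to −0.38 in CD73+ Treg, and its values in CD73+ and tdTomato- Treg (−0.41) overlapped.

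The alternative partners of α4 showed another pattern. Itgb7 minus Itgb1 was 1.06 ± 0.32 in Tconv, 1.89 ± 0.19 in CD73- Treg, 1.64 ± 0.09 in CD73+ Treg and 0.17 ± 0.10 in tdTomato- Treg. Both newly generated Treg groups overlapped each other and lay above the rest, and the tdTomato- Treg were lowest, 2.76-fold below CD73+ Treg. Itga6 minus Itgb1 had the same shape, at 0.27, 1.51, 1.36 and −0.23 in the same order of groups. In both balances the newly generated Treg differed more from the tdTomato- Treg than from Tconv. Itga4 minus Itgal moved from −0.58 in Tconv to −0.22, −0.03 and 0.27, with overlap between the newly generated Treg groups, and Itgal minus Itgb2 from 0.41 to 0.70, 0.70 and 0.85.

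**Figure D3:**
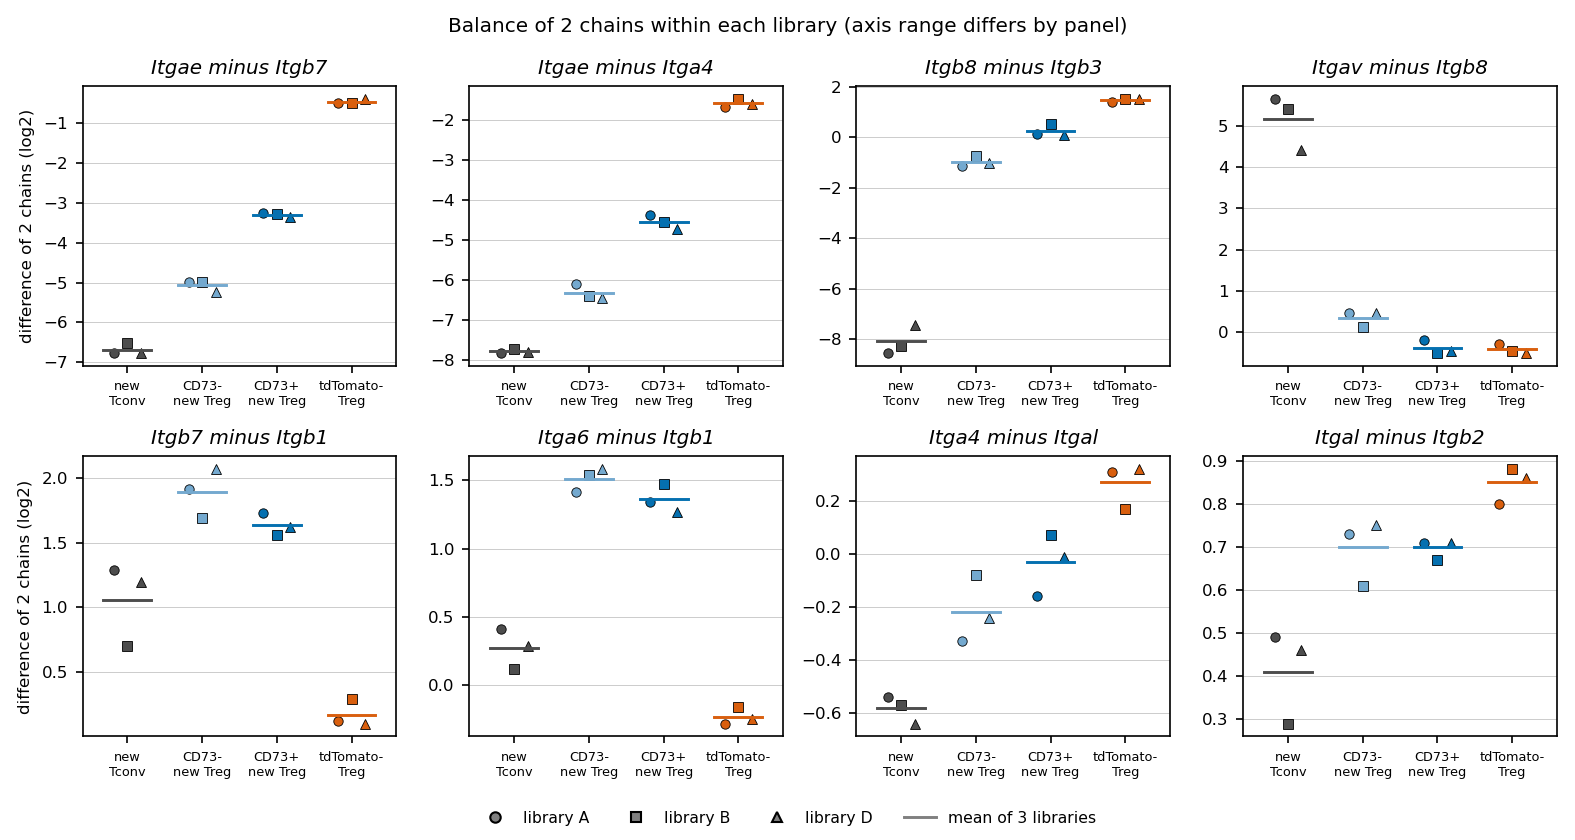
Difference of 2 chains within each library (log2, vertical axis, range set per panel) in the 4 groups, with a bar at the mean of 3 libraries. Itgae minus Itgb7 runs from −6.69 to −0.45 and Itgb8 minus Itgb3 from −8.09 to 1.48 in the order Tconv, CD73-, CD73+, tdTomato- Treg, while Itgb7 minus Itgb1 is highest in the newly generated Treg at 1.89 and 1.64.

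Likeness of pattern was measured as the root mean square difference over the 12 libraries, each gene centred on the mean of its table, among 10774 genes. The genes most like Itgae were Hdac9 (0.36, a histone deacetylase), Serpina3f (0.41, a serpin), Cd80 (0.47, a ligand of CD28 and CTLA-4), Cdhr3 (0.48, a cadherin-related protein) and Itgb8 itself (0.49). The genes most like Itgb8 were Entpd1 (0.28), which encodes the ATP-degrading CD39, Peli2 (0.28, an E3 ubiquitin ligase), Hopx (0.30, a homeodomain-only protein), Lrrc32 (0.32), which encodes GARP, and Hdac9 (0.32). Itgae was at place 15 among the genes most like Itgb8. For Itgb3 they were Tgfbr3 (0.11), a TGF-β co-receptor, Oas2 (0.15), an interferon-response gene, Enc1 (0.16, an actin-binding kelch protein), F13a1 (0.18), a coagulation factor chain, and Arhgap29 (0.22). Centring on the mean of each table removes differences between the tables, so the order of all 4 groups does not enter the measure. Hdac9, first for Itgae, differed by 1.05 between CD73+ and CD73- Treg, beside 1.88 for Itgae. Between tdTomato- Treg and Tconv Hdac9 differed by 7.23, beside 7.02 for Itgae. The measure does not bring genes to the same range, so a gene with smaller differences than Itgae ranks low even with the same order of groups. β7, at place 1395 for its partner αE, had that same order by mean, in smaller steps.

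The other integrin chains were mostly low. Of 16 chains on that list, 14 were among the genes analysed here. Itga9, an α partner of β1 that binds tenascin and osteopontin, was the most abundant of them in newly generated Treg, with 4.61, 4.68 and 4.5 in CD73- Treg and 4.56, 4.36 and 4.64 in CD73+ Treg. It had 3.42, 3.26 and 3.05 in tdTomato- Treg and 1.90, 0.99 and 1.10 in Tconv, and rose in tdTomato- Treg against Tconv by 1.91 (SE 0.19; limma, adjusted p = 2.9e-07). Its means were higher in both newly generated groups than in tdTomato- Treg, an order that crosses the tables and was not tested.

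Of the 9 other α chains tested between tdTomato- Treg and Tconv, 4 rose and 2 fell, with a median difference of 0.50 beside −0.01 for all genes. Itga3, a laminin-binding chain, rose by 2.45 (SE 0.26; limma, adjusted p = 5.6e-07), and the collagen-binding Itga2 by 1.87 (SE 0.28; limma, adjusted p = 2.8e-05). Itga7 rose by 2.23 (SE 0.55; limma, adjusted p = 0.0029), which was 1.68 and not past the threshold without the libraries of letter D and 1.4 on the scale of log2 CPM plus 1. The fibronectin receptor chain Itga5 fell by 0.74 (SE 0.15; limma, adjusted p = 6.0e-04), and the myeloid chain Itgam by 1.73 (SE 0.36; limma, adjusted p = 6.8e-04). Itga10 (−0.61), Itga1 (0.48) and Itga2b (0.50) were not past the threshold, nor was Itgb4 (0.76), the only other β chain tested. Itga10 did not overlap between the groups and was past the threshold in 3 of 15 alternatives, namely quantile normalisation (−1.10), the groups alone and the authors' deposited table (−0.62). With quantile normalisation Itga1 and Itga2b turned to −0.33 and −0.17. Itgax, Itgad, Itga8 and Itgb5 were below the filter, with at most 17 reads in any library of these groups.

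Between CD73+ and CD73- newly generated Treg, 1 of 9 other α chains passed and the median was −0.24 beside 0.01. That chain was Itga7, whose CD73- libraries held 0 to 0.99 estimated reads against 8 to 21 in CD73+ (limma, adjusted p = 0.00118), and it was not past the threshold in a fit of these groups alone or in the authors' deposited table. With the replicate block Itga7 was past it (limma, adjusted p = 0.000288). Its difference was 4.04, but 0.84 on the scale of log2 CPM plus 1. Itga9 differed by −0.08 (SE 0.19), Itga5 by −0.11 (SE 0.15) and Itga3 by −0.75 (SE 0.26), none past the threshold.

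**Figure D4:**
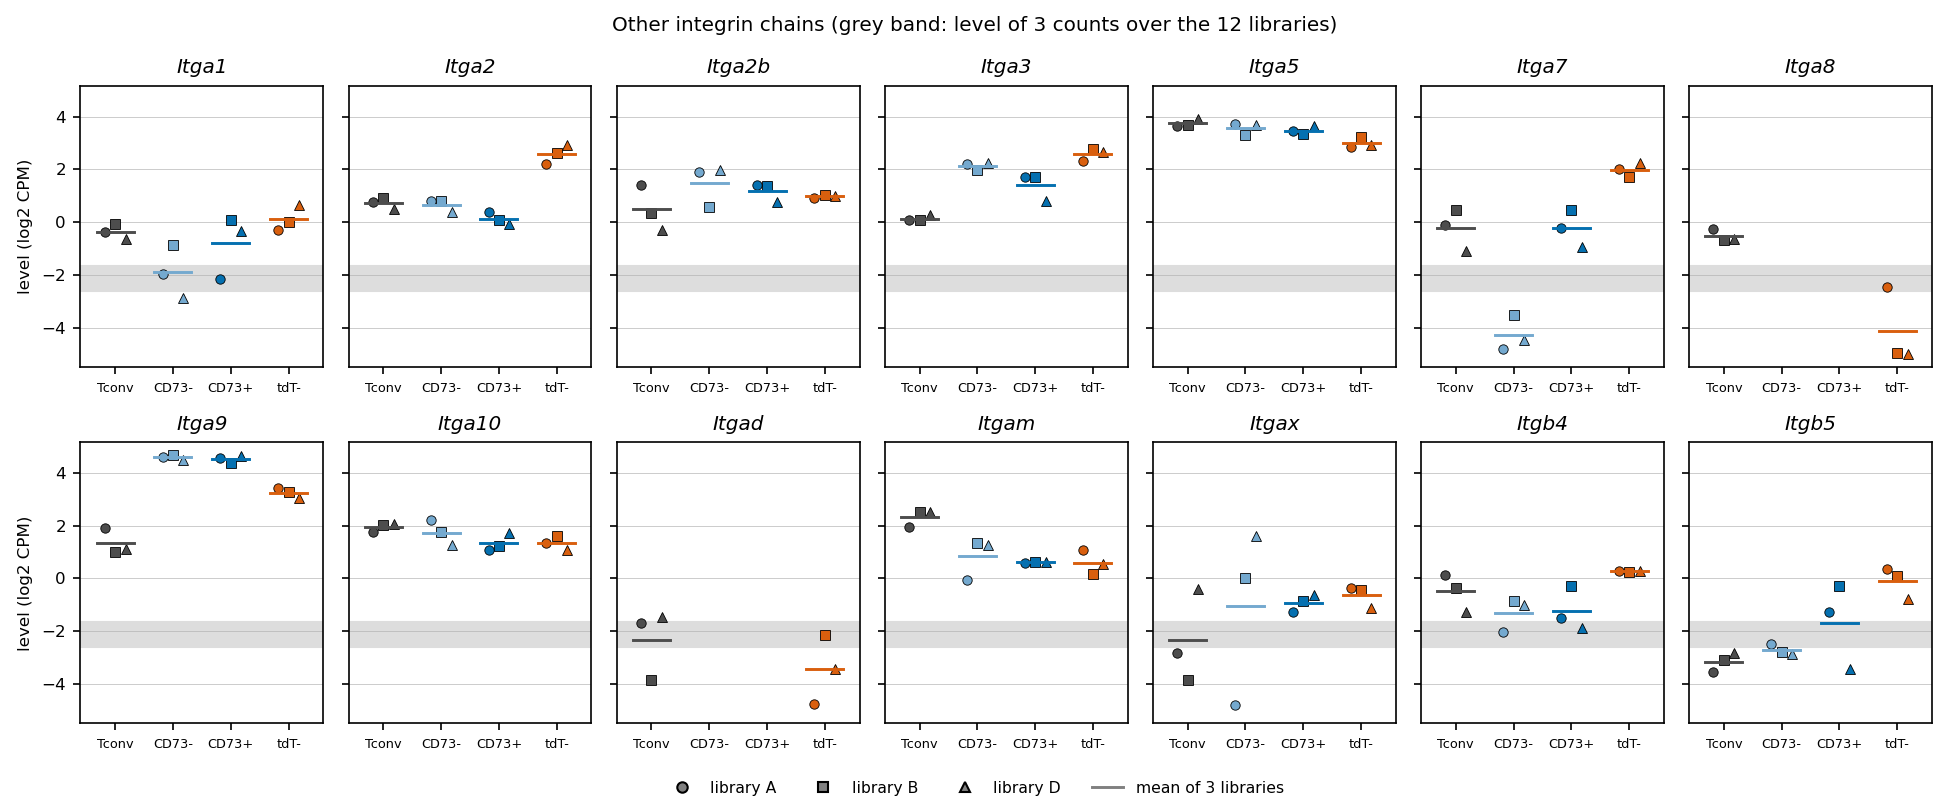
Level (log2 CPM, vertical axis) of the 14 other integrin chains analysed, by library and group, with a bar at the mean of 3 libraries and a grey band at the level of 3 counts. Itga9 stands out at 4.60 and 4.52 in CD73- and CD73+ newly generated Treg by mean against 1.33 in Tconv, and the other 13 chains lie under 4 in every library (Itga8 and Itgad are in 1 table only).

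Counts for the lists that follow stand beside the 52.1% of all genes called between tdTomato- Treg and Tconv, and no list was tested against other genes. Of 16 genes that switch integrins on from inside the cell, 4 rose and 9 fell in tdTomato- Treg, with a median of −0.18 beside −0.01. Rasgrp2, the exchange factor that loads Rap1 for LFA-1 activation, fell by 1.42 (SE 0.08; limma, adjusted p = 3.5e-10), and Rap1b itself by 0.60 (SE 0.06; limma, adjusted p = 1.0e-07). Fermt3, the kindlin-3 that binds β tails, fell by 0.21 (SE 0.05; limma, adjusted p = 0.0027). The level of Tln1, talin, differed by 0.11 (SE 0.05) and did not pass. In CD73+ against CD73- Treg 0 of these rose and 1 fell, Rasgrp2, by 0.41 (SE 0.08; limma, adjusted p = 0.0157), with a median of −0.05 beside 0.01, and that call ended with no intensity trend and without CD73+ library A, CD73+ library B or CD73- library D, at differences of −0.49 to −0.33 over the 15 alternatives. With the replicate block 3 fell, Rasgrp2 (limma, adjusted p = 7.33e-05), Fyb and Rasgrp1. Fyb and Rasgrp1 were named after their values were seen, like the other genes given here from the blocked fit. The level of Rasgrp2 by mean was 7.81 in Tconv, 7.33 in CD73-, 6.92 in CD73+ and 6.38 in tdTomato- Treg, the reverse of the order of αE and β8.

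Of 10 inhibitors of integrin activation, 1 rose and 4 fell in tdTomato- Treg against Tconv (median −0.21), among them Flna, filamin A, which competes with talin (−0.55, SE 0.05; limma, adjusted p = 5.0e-08). None of the 10 passed between CD73+ and CD73- Treg (median 0.01), and with the replicate block 1 fell, Sipa1l1. Of 19 adaptors and kinases that act after ligand binding, 5 rose and 6 fell in tdTomato- Treg (median −0.05), with vinculin (Vcl) higher by 1.46 (SE 0.23; limma, adjusted p = 4.5e-05) and Ptk2b, the kinase Pyk2, lower by 0.50 (SE 0.05; limma, adjusted p = 6.5e-07). None of those 19 passed between the newly generated Treg groups (median −0.09), and with the replicate block 1 rose, Zyx, and 1 fell, Git2.

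Ligands of the integrins were also read in these cells. Of 9 tested, 4 rose and 2 fell in tdTomato- Treg (median 0.15). Icam1, the ligand of LFA-1, rose by 1.96 (SE 0.11; limma, adjusted p = 1.2e-10), and Icam2, another LFA-1 ligand, fell by 0.48 (SE 0.11; limma, adjusted p = 0.00161). Vcam1, the ligand of α4β1, rose by 2.13 (SE 0.51; limma, adjusted p = 0.00201) from a log2 CPM of 0.01. Cdh1, the E-cadherin bound by αEβ7, was at 0.15 and 0.54 and did not pass. Between CD73+ and CD73- Treg 1 of 9 rose (median 0.19), the fibronectin gene Fn1, by 1.41 (SE 0.32; limma, adjusted p = 0.0312), a call lost in 9 of 15 alternatives. With the replicate block Fn1 was past the threshold (limma, adjusted p = 0.0115).

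In the latent TGF-β system that αvβ8 acts on, 7 of 15 genes rose and 5 fell in tdTomato- Treg (median 0.15). Lrrc32, the GARP that holds latent TGF-β on Treg, was at 1.20 in Tconv and 8.47 in tdTomato- Treg, a rise of 7.26 (SE 0.09; limma, adjusted p = 2.0e-18), and is among the genes most like Itgb8. Tgfbr1 rose by 2.29 (SE 0.05; limma, adjusted p = 4.9e-16), while Tgfbr2 fell by 0.82 (SE 0.06; limma, adjusted p = 1.2e-08) and Tgfbr3 by 2.64 (SE 0.10; limma, adjusted p = 5.0e-13). Tgfb1, the cytokine, differed by 0.15 (SE 0.07) and did not pass. Within newly generated Treg, Lrrc32 was the 1 gene of 15 that passed (median 0.06), higher in CD73+ by 0.45 (SE 0.09; limma, adjusted p = 0.0153), and its call ended with no intensity trend and without CD73+ library A, CD73+ library B or CD73- library D, at differences of 0.39 to 0.53 over the 15 alternatives. Runx3, a factor that acts at Itgae in CD8 T cells, fell in tdTomato- Treg against Tconv by 0.62 (SE 0.13; limma, adjusted p = 7.6e-04), and its difference in newly generated Treg was 0.50 (SE 0.13; limma, adjusted p = 0.0573), past the threshold with the replicate block (limma, adjusted p = 0.0179). With the block Lrrc32 was still past the threshold (limma, adjusted p = 0.00363), and Tgfbr3 also fell in CD73+ Treg.

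Of 12 tetraspanins and membrane partners, 6 rose and 4 fell in tdTomato- Treg (median 0.22), with Cd82 higher by 0.71 (SE 0.06; limma, adjusted p = 7.9e-08) and Cd53 lower by 0.51. Of 13 other adhesion receptors, 7 rose and 2 fell (median 0.35), led by Cd44, the hyaluronan receptor, higher by 2.02 (SE 0.06; limma, adjusted p = 4.1e-14), and Alcam, a ligand of CD6, higher by 2.95 (SE 0.31). Neither list had a gene past the threshold between CD73+ and CD73- Treg (medians −0.10 and 0.03), and with the replicate block Cd82 rose and Cd84 fell, 1 gene of each list.

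αE is also carried by CD8 T cells and dendritic cells. Cd8a was at 0.41 in tdTomato- Treg and 1.25 in Tconv by mean, and Cd8b1 fell by 0.89 between them, while the 8 genes of the CD8 and double-positive list summed to 80.5 to 89.8 CPM in tdTomato- Treg and 73.8 to 78.7 in Tconv. Nkg7, on the same list, rose by 3.94 there and by 1.68 in CD73+ Treg, the second not past the threshold without the libraries of letter D. That list summed to 38.3 to 46.3 CPM in CD73+ and 34.3 to 83.1 CPM in CD73- Treg. The myeloid and dendritic list, 14 of 15 genes in this table, summed to 64.6 to 80 CPM in tdTomato- Treg and 39.2 to 43.4 in Tconv. Of 8 tested, 4 were higher (Cd74, Cst3, H2-Aa and Lyz2) and 1 lower (Itgam). The calls of H2-Aa and Lyz2 were lost in 4 and 2 of 15 alternatives. Below the filter, Flt3 was at 0 in the tdTomato- Treg, while Itgax and Xcr1 had higher means there than in Tconv, with overlap. The 13 measured genes of this list summed to 44.6 to 50.7 CPM in CD73+ and 34.3 to 57.4 in CD73- Treg. B cell genes, 5 of 6 measured, summed to 6.73 to 8.9 CPM in tdTomato- Treg and at most 5.2 in the other groups, thymic epithelial genes (4 of 7) to 6.13 to 8.65 and at most 5.06, and erythroid genes (6 of 7) to 90.9 to 144 against 67.4 to 107 in Tconv. Of 4 innate-like T and NK genes tested, Zbtb16 fell by 3.47 in tdTomato- Treg against Tconv and rose by 3.88 in CD73+ against CD73- Treg, the second call being lost without letter D and in the authors' deposited table. Tbx21 and Eomes rose by 2.06 and 1.79 and Sox13 fell by 1.91 in tdTomato- Treg, the last not past the threshold without letter D, and the 6 measured genes of that list summed to 8.65 to 16 CPM over the 12 libraries. Stromal and endothelial genes summed to at most 2.62 CPM, with Col1a2 past the threshold in tdTomato- Treg and at 0 in the Tconv libraries. The part of such cells in the levels of the 10 chains was not tested.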

How the data were processed

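Bulk RNA-seq of 12 libraries, 3 from each of 4 sorted groups, was analysed. STAR, RSEM, limma and the mm10 build are named in the submitters' processing notes. Versions and settings are not given in the sources used here. What the authors deposited is a log2 value for each gene in each library, in 2 separately scaled tables of 6 libraries, with log2 fold changes and adjusted p-values (q-values) for the comparison in each. The deposited log2 values are on a CPM scale with an offset of 0.5 count, a reading taken from the values, in which 115 to 485 genes per library share the lowest value. Depth and reads behind a level were computed from that lowest value. Of 13207 genes, 12660 are in the first table, 12957 in the second and 12410 in both.

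Genes that reached a log2 CPM of 0 in 3 or more libraries entered a limma fit (version 3.58.1, R 4.3.3) with 4 group means over all 12 libraries with an intensity trend and no block. Tests were two-sided, within a table, with Benjamini-Hochberg adjustment over all genes tested and a threshold of 0.05. The fit was tested on simulated data with independent libraries and no letter effect. Those data cannot show whether a fit without a block suits the libraries here. Errors are SD over 3 libraries for levels and SE of the fit for differences. The members and gene lists were chosen with earlier results of these data known. All 10 chains and all other measured integrin chains are named, and up to 4 genes per direction past the threshold, by p-value, could be named from each other list. The 5 genes most like Itgae, Itgb8 and Itgb3 are also named.

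Same-letter libraries were taken as pairs where each correlation of their deviations from the group means was over 0.1. For CD73+ and CD73- newly generated Treg it was 0.146 to 0.266 over 9942 genes at or above a log2 CPM of 0 in every library, and 0.058 to 0.11 over all 11167 genes of the filter. For tdTomato- Treg and Tconv it was 0.054 to 0.117 and 0.038 to 0.103, so no pairing was taken there. Of the file's gene IDs, 13077 match GENCODE M21. The alternatives were quantile normalisation, other filters, an offset of 1 CPM, only the groups compared, the block, no trend, the authors' deposited table, and leaving out letter D or each library.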

Additional observations from a re-analysis of the deposited data

How the results depend on the processing

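All 10 chains kept their direction in both comparisons under all 15 alternatives, over 150 values each. Between tdTomato- Treg and Tconv all 150 also kept their side of the threshold, with 9 chains past it each time. Between CD73+ and CD73- newly generated Treg, 137 of 150 did. With no intensity trend 2 chains were past the threshold instead of 4, and with each library left out in turn 2 to 5. The count of all genes past it in this comparison was 273. It was 146 with only the groups compared, 107 with no intensity trend, 46 without the libraries of letter D, 151 in the authors' deposited table and 95 to 360 with each library left out. With the replicate block it was 630 and 5 chains passed. The blocked fit gave 6229 genes and 9 chains for tdTomato- Treg and Tconv. The cause of these changes was not tested.

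The differences of 4 low chains changed sign. Between CD73+ and CD73- Treg, Itga2b was 0.16 without letter D, Itgam ranged from −0.70 to 0.01 over the libraries left out in turn, the last without CD73- library B, and Itgb4 from −0.39 to 0.39, below 0 without CD73+ library B or CD73- library A (−0.28). Between tdTomato- Treg and Tconv, quantile normalisation gave −0.33 for Itga1 and −0.17 for Itga2b. It moved the median of all genes from −0.01 to −0.09. Levels near that of 3 counts limit what can be read of Itga7, Itga8, Itgad, Itgax and Itgb5.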
